A study of Saccharomyces cerevisiae with 4 samples.

Results

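The genes described here encode the machinery that brings nuclear-encoded proteins into mitochondria in budding yeast (Saccharomyces cerevisiae). They were chosen by systematic name as subunits of the TOM, TIM, PAM and SAM complexes, the disulfide relay proteins MIA40 and ERV1, the processing peptidase subunits MAS1 and MAS2, and the insertase OXA1. This gave 31 genes, of which 27 were among the 5500 reading frames of the value table and 20 had a value on every array. Transcripts of a strain named bre1 were compared with those of wild type, by hybridising both polyadenylated RNAs to the same 2-colour array, on 4 arrays. On arrays 1 and 3 bre1 was labelled with Cy3 and wild type with Cy5, and on arrays 2 and 4 bre1 was in Cy5 and wild type in Cy3. BRE1 encodes the ubiquitin ligase of histone H2B. The labels give only the names bre1 and wild-type, with no kind of mutation, strain background, mating type or growth condition. They also leave unsaid if separate cultures were used, so the p-values below cover array-to-array spread, possibly technical.

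Most mitochondrial proteins are made in the cytosol and enter through TOM, the translocase of the outer membrane. Beyond it the routes part: TIM23 and its motor PAM take precursors with a cleavable presequence into the matrix, TIM22 inserts carrier proteins into the inner membrane with help from the small TIM chaperones, SAM places beta-barrel proteins in the outer membrane, and MIA40 traps small cysteine-rich proteins between the membranes by oxidising them. The route is built from large channel and receptor proteins together with very small accessory proteins. The size contrast between these classes was the comparison the gene set was drawn up for.

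Each value is the log2 ratio of the RNAs on an array, read as bre1 over wild type, so that a positive value is higher in bre1. The values themselves bore on the scale and the sign. With base 2, the antilogs of arrays 2 and 4 fell on whole multiples of a single step (0.000923 and 0.00102) for 100% of values, within 0.05 of a step. On arrays 1 and 3 this held for 100% of values once the sign was turned (steps of 0.00109 and 0.00106), and for 9.92% and 9.29% with the sign as given. Every other combination of sign with base 2, e or 10 placed between 8.4% and 12.7% of values on such steps, where evenly spread values would give 10%. A ratio rounded to fixed decimals, scaled by 1 factor per array and then logged to base 2 has this form. The arrays with bre1 in Cy3 had thus been inverted relative to those with bre1 in Cy5, and all 4 run the same way. If the rounded ratio was Cy5 over Cy3, the usual form of scanner output, the deposited values are bre1 over wild type. BRE1 itself was low on that reading, at -1.65 on array 1 and -3.17 on array 3, with no value on arrays 2 and 4. Since each ratio is taken over the RNA of a whole sample, less BRE1 RNA in every cell and fewer cells holding BRE1 RNA cannot be told apart. The direction is likely and not stated, and with the opposite one every sign below would turn. The single factor per array shows that no correction varying from spot to spot was applied after the rounding.

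The import genes as a group were centred on no change. Of the 20 genes measured on all arrays, 10 had a mean log2 ratio above 0 and 10 below 0, and their median was 0.0006, against 0.02 for all 3840 genes tested. PAM16, a subunit of the import motor, rose, and TOM71, a receptor of the outer membrane, fell. The other 18 did not pass an adjusted p of 0.05 when limma tested each mean against 0, and 4 of them (TOM7, TIM13, SAM37 and TIM18) had an unadjusted p under 0.05. Of all 20, 6 had an unadjusted p under 0.05, beside 1158 of all 3840 tested genes, a share close to the background. A rise in 1 of 20 (5%) stands beside 5.89% of all tested genes that rose, and a fall in 1 of 20 (5%) beside 4.79% that fell, so both shares are close to the background. Means ran between -0.56 and 0.84. Of the 20, 6 kept 1 sign throughout (4 above and 2 below 0), a share of 30% beside 35.7% of all tested genes.

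**Figure D1:**
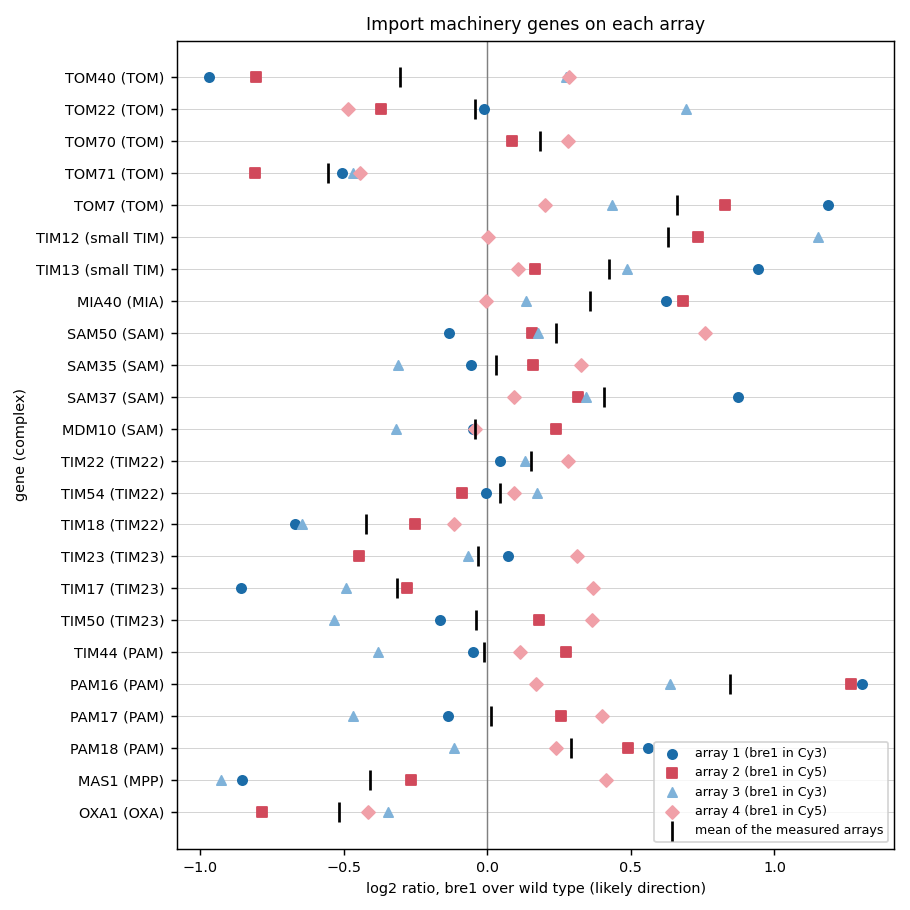
Log2 ratio of bre1 over wild type (horizontal axis) for the 24 import genes with a value on at least 1 array, ordered by complex; coloured points are single arrays and the black bar is their mean. PAM16 lies right of 0 on all 4 arrays and TOM71 left of 0, while TOM40 splits between arrays 1 and 2 on the left and arrays 3 and 4 on the right.

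Among the receptors and pore of TOM, TOM71 (YHR117W) was the member that fell. It encodes a paralogue of the receptor TOM70, which binds precursors of hydrophobic carrier proteins together with their cytosolic chaperones. TOM71 had log2 ratios of -0.51, -0.81, -0.47 and -0.44 on arrays 1 to 4. All 4 lay below 0 and close together, and the mean was -0.56 ± 0.17 (SD, n = 4), 1.47-fold lower in bre1, with an adjusted p of 0.0470. The call was near the threshold and was lost without array 1, 2 or 3 (adjusted p of 0.165, 0.193 and 0.0950), and stayed at 0.0479 without array 4. TOM70 (YNL121C) was measured on arrays 2 and 4 alone, at 0.09 and 0.28. On those arrays, both with bre1 in Cy5, TOM71 lay below its paralogue by 0.90 and 0.72 on the log2 scale. The pair was thus not compared with bre1 in Cy3, and no test was made for the difference.

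TOM40 (YMR203W), the channel protein of the outer membrane, had log2 ratios of -0.97, -0.81, 0.28 and 0.28. Arrays 1 and 2 thus showed it lower in bre1 and arrays 3 and 4 higher, with no overlap between these pairs of arrays, each of which holds both dye orientations. Its mean was -0.30 ± 0.68 (adjusted p = 0.434), and its SD exceeded that of 93.6% of all tested genes. TOM22 (YNL131W), the central receptor that also organises the complex, was above 0 on array 3 alone, with values of -0.01, -0.37, 0.69 and -0.48 and a mean of -0.04 ± 0.53. TOM20 (YGR082W), the receptor for presequences, was listed with no value on any array.

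Of the small TOM subunits, TOM7 (YNL070W), which acts in assembly and turnover of the complex, was above 0 on every array. Its log2 ratios were 1.18, 0.83, 0.43 and 0.20, with a mean of 0.66 ± 0.43 (1.58-fold). The adjusted p of 0.0564 missed the threshold. It passed without array 4 (0.0211), where its value was lowest. It also passed with a dye term (0.0317) and with array weights estimated from these same ratios (0.0273). Of all 3840 tested genes, 677, 897 and 685 passed in these fits. Without array 1, 2 or 3 TOM7 did not pass (adjusted p of 0.247, 0.195 and 0.0930). Nor did it pass with the trend of the ratio on gene length removed (0.369). TOM5 (YPR133W-A), a further small subunit, was not among the rows of the value table.

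The small TIM proteins are chaperones of the intermembrane space, working as hexamers of TIM9 with TIM10 and of TIM8 with TIM13, with TIM12 holding such a hexamer at the TIM22 channel. TIM13 (YGR181W) had log2 ratios of 0.94, 0.17, 0.49 and 0.10. It was thus above 0 on all arrays, with a mean of 0.43 ± 0.38, and did not pass (adjusted p = 0.151). TIM12 (YBR091C) had 0.73, 1.15 and 0.0012 on arrays 2 to 4 and no value on array 1. Its mean of 0.63 ± 0.58 (SD, n = 3) was not tested in the main comparison. TIM8 (YJR135W-A), TIM9 (YEL020W-A) and TIM10 (YHR005C-A) were not among the rows, so the chaperone that most carrier precursors use was not measured.

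MIA40 (YKL195W), the oxidoreductase that receives the small TIM proteins and similar precursors, had log2 ratios of 0.62, 0.68, 0.14 and -0.0047. It was clearly above 0 on arrays 1 and 2 and near 0 on arrays 3 and 4, with a mean of 0.36 ± 0.34 (adjusted p = 0.196). ERV1 (YGR029W), the sulfhydryl oxidase that re-oxidises MIA40, had no value on any array.

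SAM, the sorting and assembly machinery of the outer membrane, had 4 genes measured; none passed in limma, and SAM37 alone had an unadjusted p under 0.05. SAM37 (YMR060C), which helps to release finished beta-barrel proteins, was above 0 on every array, at 0.87, 0.32, 0.35 and 0.09. Its mean was 0.41 ± 0.33 (adjusted p = 0.147). SAM50 (YNL026W), the channel, had a mean of 0.24 ± 0.37 and its highest value, 0.76, on array 4. SAM35 (YHR083W), which recognises the sorting signal of beta-barrel precursors, and MDM10 (YAL010C), a barrel protein shared with the tether between mitochondria and the endoplasmic reticulum, had means of 0.03 ± 0.28 and -0.04 ± 0.23. The 95% intervals of these means from the moderated fit, -0.34 to 0.40 and -0.39 to 0.31, show the size of change the arrays leave possible.

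The carrier translocase gave 1 member that was low throughout. TIM18 (YOR297C), a subunit that acts in assembly of the complex, had log2 ratios of -0.67, -0.25, -0.64 and -0.12. All were below 0, with lower values on both arrays with bre1 in Cy3, and the mean was -0.42 ± 0.28 (adjusted p = 0.121). It passed with a dye term (adjusted p = 0.0441), as did 897 of all 3840 tested genes. Without array 1, 2, 3 or 4 it did not pass (adjusted p of 0.421, 0.226, 0.285 and 0.0755). TIM54 (YJL054W), a scaffold of the same complex, had the smallest SD of the 20 import genes, with a mean of 0.04 ± 0.11 and a 95% interval of -0.28 to 0.37. TIM22 (YDL217C), the channel, had 0.04, 0.13 and 0.28 on arrays 1, 3 and 4.

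In the presequence translocase, all 3 measured genes had means below 0, and none passed in limma or had an unadjusted p under 0.05. TIM23 (YNR017W), the channel, had a mean of -0.03 ± 0.32, with a 95% interval of -0.41 to 0.35. TIM50 (YPL063W), the receptor that hands precursors from TOM to the channel, had a mean of -0.04 ± 0.40. TIM17 (YJL143W), the partner of TIM23 in the channel and a gene of 477 bp, had log2 ratios of -0.86, -0.28, -0.49 and 0.37. It was below 0 on arrays 1 to 3 and above 0 on array 4, with a mean of -0.32 ± 0.51 (adjusted p = 0.334).

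The import motor held the gene that rose. PAM16 (YJL104W), of 450 bp, encodes a J-like protein that pairs with the J-protein PAM18 and restrains its stimulation of the mitochondrial Hsp70. Its log2 ratios were 1.30, 1.27, 0.63 and 0.17, all above 0 and higher on arrays 1 and 2 than on arrays 3 and 4. The mean was 0.84 ± 0.54, 1.79-fold higher in bre1, with an adjusted p of 0.0395, and the gene ranked 101 of 3840 by its mean. The call was lost without array 1, 2 or 3 (adjusted p of 0.150, 0.162 and 0.0758) and was at 0.00752 without array 4. PAM18 (YLR008C) had log2 ratios of 0.56, 0.49, -0.12 and 0.24, with a mean of 0.29 ± 0.31 (adjusted p = 0.267). PAM16 lay above this partner by 0.74, 0.78 and 0.75 on arrays 1 to 3 and by -0.07 on array 4. TIM44 (YIL022W), which anchors Hsp70 at the channel, and PAM17 (YKR065C), which acts in organising the motor, had means of -0.01 ± 0.28 and 0.01 ± 0.39.

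**Figure D2:**
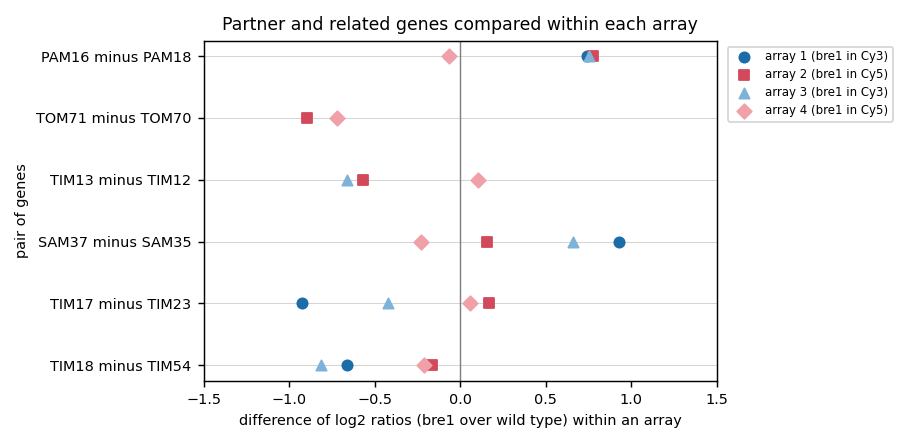
Difference between the log2 ratios of partner or related genes (horizontal axis) within each array, shown by colour; a positive value means that the gene named first had the higher ratio. PAM16 exceeded PAM18 by 0.74 to 0.78 on arrays 1 to 3, and TIM18 was below TIM54 on all 4 arrays. TOM71 was below TOM70 on both arrays that measured the pair, each with bre1 in Cy5.

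The same comparison of partners, made for 6 pairs chosen after the values were seen, gave a difference of 1 sign on every array measured for TOM71 against TOM70 and TIM18 against TIM54. For TOM71 and TOM70 these were arrays 2 and 4, both with bre1 in Cy5. TIM18 lay below TIM54 by 0.67, 0.17, 0.82 and 0.21. SAM37 minus SAM35 ranged from -0.23 to 0.93, TIM17 minus TIM23 from -0.93 to 0.17 and TIM13 minus TIM12 from -0.66 to 0.10. These are unequal ratios within arrays, given without a test.

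At the end of the pathway, MAS1 (YLR163C) encodes the beta subunit of the peptidase that removes presequences. Its log2 ratios were -0.85, -0.27, -0.93 and 0.41. Array 4 thus ran against the other 3, and the values were lower on both arrays with bre1 in Cy3. The mean was -0.41 ± 0.62 (adjusted p = 0.261), and without array 4 the gene passed (mean -0.68, adjusted p = 0.0396). That fit kept both arrays with bre1 in Cy3 and only array 2 with bre1 in Cy5. In it 677 of all 3840 tested genes passed. Without array 1, 2 or 3 MAS1 did not pass (adjusted p of 0.636, 0.388 and 0.590). MAS2 (YHR024C), the alpha subunit, was listed with no value. OXA1 (YER154W), which inserts proteins into the inner membrane from the matrix side, was below 0 on each array that measured it, at -0.79, -0.35 and -0.41 on arrays 2 to 4.

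The comparison of small TIM and TOM proteins with the larger subunits rests on few genes. Of the 7 named small proteins, TOM7 and TIM13 were measured on all arrays, and the median of their means was 0.54. The 18 tested larger subunits, here all other members and so also the short genes PAM16, TOM22 and TIM17, had a median of -0.02. The difference of 0.57 was 1.12, 0.34, 0.68 and -0.05 on arrays 1 to 4, so that it was seen on 3 arrays and absent on array 4. Taking all genes of at most 500 bp as small (TOM7, TIM13, PAM16, TOM22 and TIM17) gave medians of 0.43 for these 5 and -0.01 for the 15 longer genes. Within the short class the signs were mixed: TOM7, TIM13 and PAM16 had means above 0, TOM22 and TIM17 below.

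Over the whole array, shorter genes also had higher ratios, with little difference between the classes over 1000 bp. All tested genes of at most 500 bp had a median of 0.36 (n = 294), those of over 500 to 1000 bp 0.13, the next class up to 1500 bp -0.02, that up to 2000 bp -0.06, and the class over 2000 bp -0.05. In the shortest class 20.7% of all genes rose, against 1 of the 5 import genes (PAM16). In the class of TOM71, over 1500 and up to 2000 bp, 7.79% of genes fell. Over genes, Spearman's rho between length and mean ratio was -0.40 for the 20 import genes and -0.26 for the 3821 tested genes with an annotated length (values across genes of the same arrays, which are not independent). On array 3 the import genes gave -0.44 and all genes -0.08, and on array 4 they gave 0.01 and -0.19. The relation with length thus differed from array to array, for the import genes and for all genes.

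**Figure D3:**
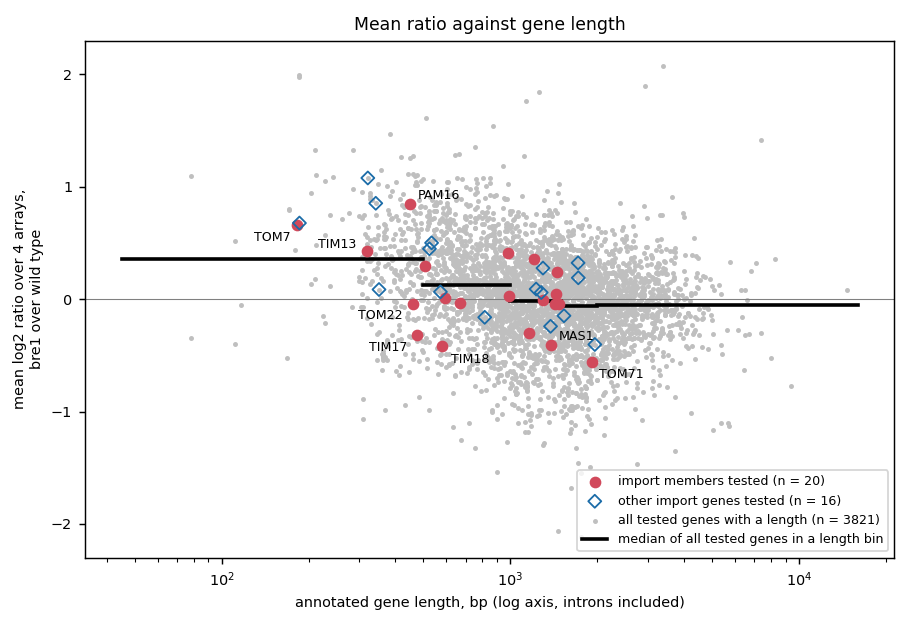
Mean log2 ratio over 4 arrays (vertical axis) against annotated gene length in bp (log axis) for the 20 tested import genes, 16 other import genes and 3821 tested genes, with black bars for the median of all tested genes per length class. The bars descend from 0.36 below 500 bp to -0.06 between 1500 and 2000 bp, with -0.05 over 2000 bp; TOM7, TIM13 and PAM16 lie on or above the first bar and TOM22, TIM17 and TIM18 below theirs.

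Set against other genes of like length, the short genes with means above 0 stood out less. PAM16 was 0.49 above the median of its length class (members left out), TOM7 0.30 and TIM13 0.07. With the trend of the ratio on gene length removed from each array, the means of TOM7 and TIM13 were 0.22 and 0.07, and the difference between the named small and the larger subunits was 0.12. PAM16 then had a mean of 0.56 (adjusted p = 0.0830) and TOM71 one of -0.46 (adjusted p = 0.0697), so both calls were lost. TIM18 passed in that fit, with a mean of -0.63 (adjusted p = 0.0329), and TIM17, which is short and low, had a mean of -0.58 (adjusted p = 0.100). Of the 20 import genes, 9 lay above the median of their length class and 11 below.

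**Figure D4:**
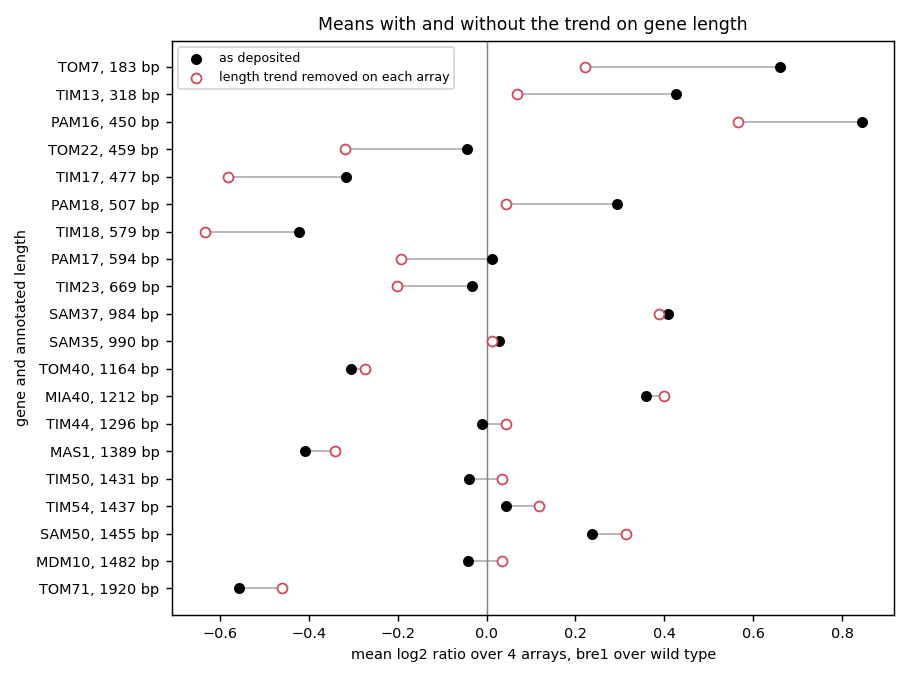
Mean log2 ratio over 4 arrays (horizontal axis) of the 20 tested import genes, ordered by length from the shortest at the top, as deposited (black) and after removal of the length trend on each array (open). TOM7 moves to 0.22, TIM13 to 0.07 and PAM16 to 0.56, and TIM17 and TIM18 move to -0.58 and -0.63.

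**Figure D5:**
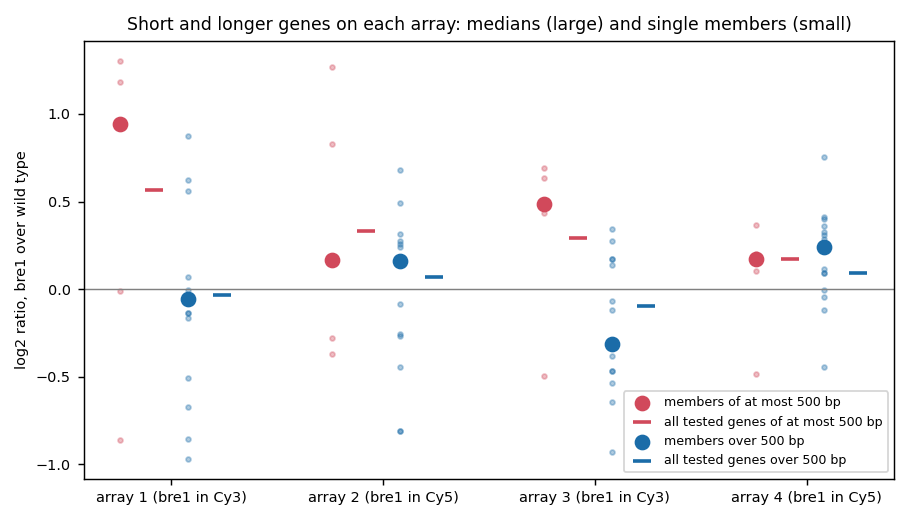
Log2 ratios on each array for short genes (at most 500 bp, red) and longer genes (blue): large points are medians of the 5 short and 15 longer import genes, bars are medians of all tested genes of that class, and small points are single import genes. Short import genes have medians of 0.94, 0.17, 0.49 and 0.17 on arrays 1 to 4, and longer ones -0.06, 0.16, -0.31 and 0.24.

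The arrays did not give 1 picture of these genes. Over the 20 import genes, Pearson's r was 0.81 between arrays 1 and 2, 0.67 between arrays 1 and 3 and 0.34 between arrays 2 and 3. Over all tested genes it was 0.65, 0.75 and 0.31 for these pairs, highest for arrays 1 and 3, both with bre1 in Cy3. Array 4 correlated with arrays 1, 2 and 3 at -0.07, 0.22 and -0.18. Over all tested genes these were 0.24, 0.54 and 0.20 (across genes, given as a description). SAM35, TIM50, TIM44 and PAM17 were below 0 on both arrays with bre1 in Cy3 and above 0 on both with bre1 in Cy5, a split that follows the dye. This was 4 of 20 import genes (20%) and 10.7% of all tested genes, and the opposite split was seen in none of the 20 and in 4.27% of all. For these 4 import genes the mean near 0 is an average of opposite signs. The medians of all tested genes were -0.005, 0.09, -0.08 and 0.10 on arrays 1 to 4, and so were shifted the same way. How much of the split goes with this shift of whole arrays was not tested. The part of the dye in single values was not tested. The fit with a dye term tested the mean alone. In it PAM16, TOM7, TOM71 and TIM18 passed, beside 897 of all 3840 tested genes.

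A further list of 28 genes with roles in import, assembly or folding of mitochondrial proteins gave 16 that were tested. Means above 0 were found for 12 of the 16, beside 52.6% of all tested genes. Of these 16, 3 rose (18.8%, beside 5.89% of all tested genes) and none fell in limma. An unadjusted p under 0.05 was found for 5 of the 16, all with means above 0, beside 1158 of all 3840 tested genes. Without array 1 or array 2 none of the list passed, without array 3 only 1, and without array 4 there were 4. The list's median was 0.14, against 0.02 for all tested genes. All 3 that rose are among the list's 4 tested genes of at most 500 bp, a class in which 20.7% of all tested genes rose. With the length trend removed, 2 of the list rose. HSP10, of 321 bp, the lid of the matrix chaperonin, had log2 ratios of 1.83, 0.85, 0.58 and 1.06 (mean 1.08 ± 0.54, 2.11-fold, adjusted p = 0.0217). MIM1, of 342 bp, which inserts helical proteins into the outer membrane, had 1.34, 0.77, 0.78 and 0.52 (mean 0.85 ± 0.35, 1.81-fold, adjusted p = 0.0235).

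TOM6, of 186 bp, is the small TOM subunit outside the chosen 31, and it is close in size to TOM7. Its log2 ratios were 0.87, 0.52, 0.56 and 0.76, a narrower range than that of TOM7, and it rose 1.60-fold (mean 0.68 ± 0.17, adjusted p = 0.0290). Both small TOM subunits measured were thus above 0 on all 4 arrays, with similar means; TOM6 passed and TOM7, whose SD was larger, did not. The difference between them was not tested. HOT13, of 351 bp, had a mean of 0.09 ± 0.08, so not every short gene of the list was high. The 12 longer genes of this list had a median of 0.08; none passed in limma, and 2 had an unadjusted p under 0.05. Among them the matrix Hsp70 gene SSC1 had -1.08, 0.11, -0.96 and 0.32, low on both arrays with bre1 in Cy3 and above 0 on both with bre1 in Cy5. HSP60, the partner of HSP10, had a mean of 0.32 ± 0.43.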

How the data were processed

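Transcripts of bre1 and wild type were compared on 4 2-colour arrays, which form 1 group of ratios. The deposited values are log2 ratios, 1 per reading frame and array; per the values themselves a rounded ratio was scaled by 1 factor per array, inverted on arrays 1 and 3, and logged. Background correction, spot filter, build and tools: not given in the sources used here. Scanner intensities were not used, so dim spots could not be filtered, and 4 arrays limit the precision. Of 5500 frames, 5470 matched a gene table of assembly R64, used for names and lengths; it lists no gene overlapping a member. The test was limma 3.58.1 in R 4.3.3 (intercept alone, eBayes, two-sided, Benjamini-Hochberg over the 3840 genes with 4 values, threshold 0.05), checked on simulated data. Errors are SDs over arrays. Alternatives left out each array, subtracted array medians, removed a loess trend on log2 length (span 0.75), turned arrays 1 and 3, added a dye term, array weights or a robust prior, or needed 3 arrays. All 31 members are named; of the further list, the 4 with the smallest p are named by rule, and the others were named after their values were seen. Members and lists were chosen with earlier results of these data known.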

Additional observations from a re-analysis of the deposited data

How the results depend on the processing

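Counts of calls depended on which arrays entered and on the fit. Leaving out any array made the dye orientations unequal in number, so a gene's dye effect did not cancel in those means. Over all genes, 410 passed; leaving out 1 array gave between 0 and 677 (54 without array 1, 0 in limma without array 2, where 815 had an unadjusted p under 0.05, 187 without array 3), a dye term gave 897 and array weights 685. For the import genes, leaving out 1 array gave between 0 and 2 that rose and between 0 and 2 that fell; without array 4 these were PAM16 and TOM7, and TOM71 and MAS1. A dye term gave 2 that rose and 2 that fell, and array weights 2 that rose. With the length trend removed 0 rose (PAM16, adjusted p = 0.0830), and with genes on at least 3 arrays 0 fell (TOM71, adjusted p = 0.0551). Of the further list, between 0 and 4 rose when 1 array was left out. The median of the named small proteins was 0.15 with the length trend removed, and 0.54 as reported. Turning arrays 1 and 3, a form that the steps in the values contradict, gave 0 limma calls over all genes (208 with an unadjusted p under 0.05), the members (0) and the further list (1), a median of -0.22 for the small proteins, a difference from the larger subunits of -0.33 and a mean of -0.13 for PAM16. With array medians subtracted or a robust prior, the counts of calls stayed within 1.5 times. The medians of the larger subunits, all tested members and the further list moved by less than their SD over arrays in every alternative run for them. That SD is wide beside the medians. Without array 3 they were 0.08, 0.12 and 0.28, against -0.02, 0.0006 and 0.14 as reported, so the sign for the larger subunits changed. It also changed without array 1 (0.0022), with the length trend removed (0.02) and with arrays 1 and 3 turned (0.11). The median of all tested members was below 0 without array 4 (-0.05) and with array medians subtracted (-0.02). In the other alternatives run for them these 2 medians kept their sign. Scanner intensities were not used, so signal over background could not limit the list. Whether the related genes TOM70 and TOM71 share probe signal was not tested.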

Other observations

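Several genes of the further import list had values on fewer than 4 arrays and stood outside the test. MGE1, the nucleotide exchange factor of the matrix Hsp70, had log2 ratios of 0.47 and 0.58 on arrays 3 and 4. COX18, an inner-membrane insertase related to OXA1, had 0.60, 0.46 and -0.05 on arrays 1, 3 and 4. MDJ1, the J-protein of the matrix, had a mean of 0.02 ± 0.19 over 3 arrays. IMP2, a subunit of the inner membrane peptidase, was tested and above 0 on all arrays, at 0.23, 0.81, 0.07 and 0.90 (mean 0.50 ± 0.41, adjusted p = 0.108). Its fellow subunit IMP1 had a mean of 0.06 ± 0.20. ZIM17, the escort protein of the matrix Hsp70, had 0.83, 0.74, 0.38 and -0.16 (mean 0.45 ± 0.45, adjusted p = 0.156).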
